A study of Homo sapiens with 4 samples.

Results

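The genes described here are the solute carrier (SLC) genes for inorganic ions and metals: bicarbonate and chloride exchangers (SLC4 and SLC26), sodium-calcium exchangers (SLC8 and SLC24), sodium-proton exchangers (SLC9), cation-chloride cotransporters (SLC12), sodium-phosphate cotransporters (SLC20), zinc exporters and importers (SLC30 and SLC39), copper and magnesium transporters (SLC31 and SLC41) and the iron transporters of SLC11 and SLC40. They were chosen by symbol alone, as every gene of these 13 families that has a probe set with a single gene symbol, which gave 75 genes out of 18377 in all. The symbols of all 75 are still the current ones in the GRCh38.p14 RefSeq gene table. RNA came from A549 and H441, both established cell lines from human lung adenocarcinoma, 48 h after lipid transfection of an siRNA named for TAZ (siTAZ) or of a control siRNA (siNTC). TAZ is the transcriptional co-activator encoded by WWTR1. The groups were A549 with siTAZ, A549 with siNTC, H441 with siTAZ and H441 with siNTC, each with 1 Affymetrix whole-transcript array, so that all 4 groups were transfected and none had a replicate. What the siRNAs target within TAZ is not stated in the labels.

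These transporters set the ionic makeup of the cell and of the fluid on its surface. In lung epithelium, chloride uptake by the basolateral sodium-potassium-chloride cotransporter and bicarbonate uptake by sodium-bicarbonate cotransporters feed the secretion of airway liquid, and sodium-proton and chloride-bicarbonate exchangers hold cytosolic pH. Zinc is moved into the cytosol by SLC39 (ZIP) proteins and out of it by SLC30 (ZnT) proteins. Iron enters through the divalent metal transporter SLC11A2 and leaves through ferroportin, SLC40A1, the known cellular iron exporter. TAZ and its paralog YAP act with TEAD factors as transcriptional outputs of the Hippo pathway.

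All values are log2 probe set signals, and differences are siTAZ minus siNTC on that scale unless stated otherwise. Median log2 signals of the 4 arrays lay between 6.05 and 6.25, and across probe sets the siTAZ and siNTC arrays had a Pearson correlation of 0.994 (A549) and 0.995 (H441). WWTR1 was 7.64 with siTAZ and 10.04 with siNTC in A549, and 7.47 with siTAZ and 9.61 with siNTC in H441 (-2.27 ± 0.12, limma SE over 2 lines, limma adjusted p = 1.5e-11). Of the epithelial marker genes EPCAM, CDH1, KRT8, KRT18 and KRT19, all 5 were above the median of the whole table (6.13) in both lines. Of 6 lung epithelial markers, 2 reached that median in A549 and 4 in H441, and NKX2-1 and NAPSA were below it in A549 (NKX2-1 5.01 with siTAZ, NAPSA 5.67 with siTAZ) and far above it in H441 (9.57 and 10.40 with siTAZ). Endothelial markers (3 genes) were below it in both lines. Among the other markers, CD14 in A549, COL1A1 in both lines and COL3A1 in H441 were above it. Some of these markers differed with the siRNA, in both directions. CD14 was 7.94 with siTAZ and 7.22 with siNTC in A549. COL1A1 was 7.72 with siTAZ and 7.31 with siNTC in A549, and 8.71 with siTAZ and 8.28 with siNTC in H441. SFTPB was 8.09 with siTAZ and 7.42 with siNTC in H441. Lower with siTAZ in A549 and H441 were KRT8 (-0.43 and -0.18), KRT18 (-0.32 and -0.19) and KRT19 (-0.29 and -0.13). SFTPC had -0.38 in A549 and -0.13 in H441, where it lay below the median. The other immune markers, PTPRC and CD3E, and the fibroblast markers PDGFRB and DCN were below the median on all 4 arrays. The part of these markers in the transporter results was not tested.

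Of the 75 transporter genes, 48 reached the table median on at least 1 array and were tested, 40 of them in both lines, 6 only in A549 and 2 only in H441. The other 27 stayed below it on every array, with signals between 4.53 and 6.13, and were not tested. They are SLC4A1 (the red cell anion exchanger), SLC4A5, SLC4A9 and SLC4A10, SLC8A2 and SLC8A3, SLC9A3 (the apical sodium-proton exchanger of kidney and gut), SLC9A4, SLC9A5 and SLC9A9, SLC11A1 (the phagosomal metal transporter of macrophages), SLC12A1 and SLC12A5 (cotransporters of kidney and neurons), SLC24A2 to SLC24A5, SLC26A3, SLC26A4 (pendrin), SLC26A5 (prestin of the outer hair cell) and SLC26A8, SLC30A2, SLC30A8 (the zinc transporter of insulin granules) and SLC30A10, and SLC39A2, SLC39A5 and SLC39A12. Their differences were not read as changes. Signals of different genes come from different probes and are not set against each other here.

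After siTAZ, SLC4A4, SLC20A1 and SLC40A1 rose over both lines. SLC4A8 was called higher as well, but it reached the table median only on the A549 siTAZ array, the one where it was high, and its call is given as a description. None of the 48 tested transporter genes fell at that threshold by the limma test, with 2 lower at an unadjusted p under 0.05 (SLC12A4 and SLC30A5). Of the 46 members that reached the median on arrays of both siRNAs, 3 were called higher (6.52%), against 1.19% of the 12192 such genes on the whole table, and the other 2 members, SLC4A8 and SLC26A9, reached it with siTAZ alone. With SLC4A8 the calls are 4 of 48 (8.33%), and 2.47% of all 12740 genes tested were called, 1.19% higher and 1.29% lower. The limma fit had the cell line as a block and 1 residual degree of freedom, with no repeat within either line. In RNA from whole cultures, a level that differs in every cell and a level that differs in some of the cells cannot be told apart. Each SE is the moderated one of this fit and draws mostly on the spread over all genes.

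SLC4A4 encodes the electrogenic sodium-bicarbonate cotransporter, which brings bicarbonate into the cell. Its signal was 7.89 with siTAZ and 6.99 with siNTC in A549, and 6.35 with siTAZ and 5.80 with siNTC in H441. The siTAZ array was the higher in each line, and in H441 the siNTC value lay below the table median. The signal was 1.86-fold higher in A549 and 1.47-fold higher in H441, and 0.72 ± 0.12 (SE) higher over both (limma adjusted p = 0.0012). It kept its call under 6 of the 7 other settings in which it was tested with the cell line in the model (adjusted p between 1.9e-05 and 0.078), and lost it after cyclic loess (0.078). Ranges of adjusted p over settings leave out the model without the cell line, in which limma called 0 of all genes and 11 had an unadjusted p under 0.05.

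SLC20A1 encodes PiT-1, a sodium-phosphate cotransporter that also serves as a retrovirus receptor. Its signal was 9.84 with siTAZ and 9.31 with siNTC in A549, and 10.14 with siTAZ and 9.77 with siNTC in H441. The rise was 0.45 ± 0.12 (SE, limma adjusted p = 0.039), and the siTAZ array was the higher in each line by 1.44-fold and 1.30-fold. Its relative SLC20A2, which encodes PiT-2, differed by -0.02 in A549 and by -0.24 in H441, which did not pass (adjusted p = 0.72).

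SLC40A1, ferroportin, had a signal of 8.81 with siTAZ and 8.39 with siNTC in A549, and of 9.89 with siTAZ and 9.42 with siNTC in H441. It rose by 0.44 ± 0.12 (SE, limma adjusted p = 0.040). The A549 difference was 0.42 and the H441 difference 0.47. The difference was larger in H441 for this gene and larger in A549 for the other 3 called genes. SLC20A1 and SLC40A1 each kept the call under 4 of 8 other settings (adjusted p between 0.0014 and 0.12 for SLC20A1 and between 0.0037 and 0.12 for SLC40A1). Both lost it after median centring, quantile normalization or cyclic loess and without the filter on dim genes.

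SLC4A8 encodes a sodium-driven chloride-bicarbonate exchanger. Its signal was 6.24 with siTAZ and 5.43 with siNTC in A549, and 5.73 with siTAZ and 5.55 with siNTC in H441. Only the A549 array with siTAZ reached the table median, so the gene entered the test through the group in which it was high. The difference was 0.81 in A549 and 0.18 in H441 (0.50 ± 0.13 over both, limma adjusted p = 0.046), and the call held under 1 of the 7 other settings in which it was tested, median centring (adjusted p between 0.046 and 0.31 over the 7).

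**Figure D1:**
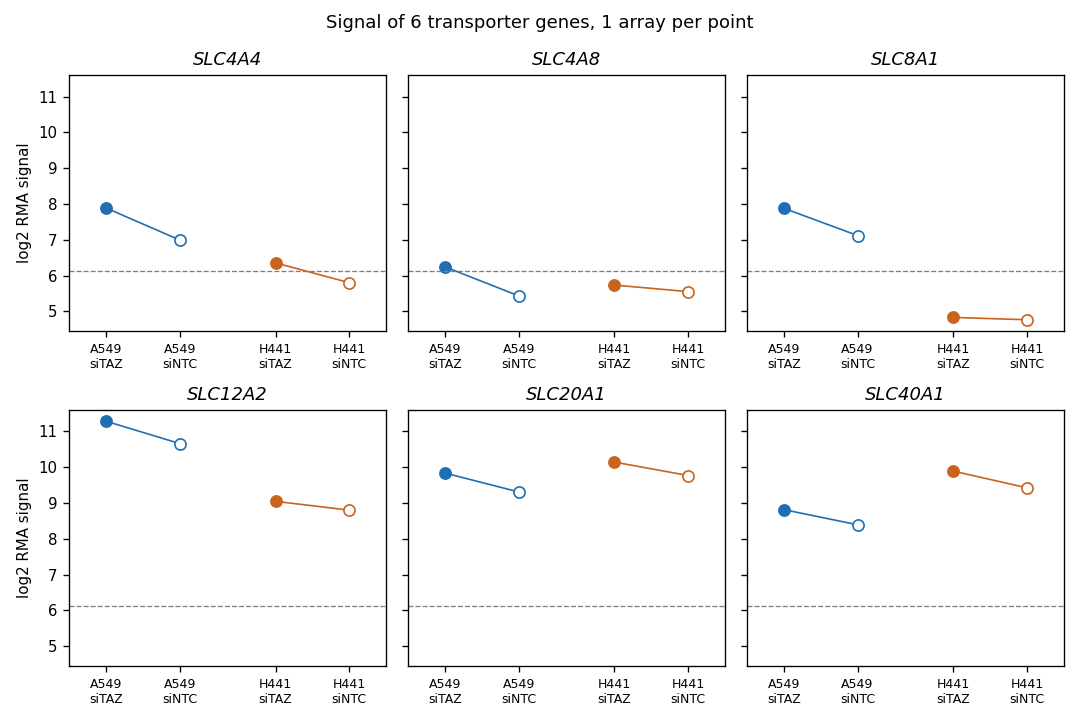
Log2 RMA signal (vertical axis) of the 4 transporter genes called over both lines and of the other 2 at least 1.5-fold changed in A549, with 1 array per point, filled for siTAZ and open for siNTC, blue for A549 and orange for H441. The dashed line is the table median of 6.13; in every panel the siTAZ point lies above the siNTC point of its line, and the H441 points of SLC8A1 lie below 5.

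The 250 bases before the RefSeq start of the 4 called genes are shown because they are the promoter stretches of the called members. They are from the GRCh38.p14 promoter table of RefSeq, which gives 1 start a gene, so other starts of these genes are not shown. They are written 5′ to 3′ on the strand of the gene, in lower case. Capitals mark matches on either strand to a metal response element (TGCNCNC) or an antioxidant response element (TGACNNNGC), and no match to either overlaps another; the TEAD motif GGAATG was searched as well and has no match in these 4 windows.
SLC4A4, chr4:71062410-71062659, plus strand: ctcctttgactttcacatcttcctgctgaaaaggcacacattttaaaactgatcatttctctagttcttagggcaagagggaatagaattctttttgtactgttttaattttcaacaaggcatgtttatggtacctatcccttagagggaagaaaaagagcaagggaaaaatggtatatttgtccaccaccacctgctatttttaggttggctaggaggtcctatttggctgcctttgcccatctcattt
SLC4A8, chr12:51424581-51424830, plus strand: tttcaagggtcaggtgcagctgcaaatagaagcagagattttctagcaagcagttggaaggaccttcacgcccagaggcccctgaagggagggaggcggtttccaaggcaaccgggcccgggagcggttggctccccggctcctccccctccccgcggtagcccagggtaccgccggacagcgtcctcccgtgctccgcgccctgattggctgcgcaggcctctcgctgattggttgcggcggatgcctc
SLC20A1, chr2:112645689-112645938, plus strand: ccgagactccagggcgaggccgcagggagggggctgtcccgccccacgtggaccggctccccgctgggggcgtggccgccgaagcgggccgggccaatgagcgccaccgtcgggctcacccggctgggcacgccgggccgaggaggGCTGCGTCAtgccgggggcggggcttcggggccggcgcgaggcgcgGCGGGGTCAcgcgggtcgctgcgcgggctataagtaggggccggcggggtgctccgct
SLC40A1, chr2:189580787-189581036, minus strand: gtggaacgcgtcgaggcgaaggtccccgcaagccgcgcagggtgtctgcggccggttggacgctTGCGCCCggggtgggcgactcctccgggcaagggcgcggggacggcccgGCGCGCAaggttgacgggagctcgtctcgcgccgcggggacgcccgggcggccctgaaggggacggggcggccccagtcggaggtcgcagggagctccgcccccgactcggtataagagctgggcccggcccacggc

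The SLC40A1 window has 2 metal response matches, 1 on each strand, and the SLC20A1 window has 2 antioxidant response matches, both on the minus strand relative to the gene. The SLC4A4 and SLC4A8 windows have no match to the 3 motifs. Their base composition differs widely, with 39.2% G and C in SLC4A4, 65.6% in SLC4A8, 80.0% in SLC20A1 and 77.2% in SLC40A1, against a median of 58.0% over 27305 RefSeq promoters. Over those promoters, 11.9% of windows of this length hold the TEAD letters, 48.4% the metal response letters and 11% the antioxidant response letters. Of the 65 transporter genes with a promoter in the table, 4 (6.15%), 28 (43.1%) and 9 (13.8%) hold them. A match says only that the letters occur there.

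Over all 48 tested transporter genes, positive differences outnumbered negative ones. An unadjusted limma p under 0.05 was reached by 17 of the 48, 15 higher (31.2%) and 2 lower (4.17%), where 6.74% and 6.51% of all tested genes did so in each direction. Among the 46 that reached the table median with both siRNAs it was 14 higher (30.4%), against 6.37% of such genes, and 2 lower (4.35%), against 6.57%. The difference was positive in both lines for 29 of the 48 (60.4%), against 30.3% of all tested genes, negative in both for 5 (10.4%), against 27.2%, and of opposite sign for 14. In A549 the 46 members that reached the table median had a median difference of 0.16, where that of all 11405 genes was 0.0051, and 36 were positive (78.3%, against 50.9%). In H441 the 42 members had a median of 0.12, where that of all 11911 genes was 0.0048, and 29 were positive (69%, against 50.8%). With each array centred on its median, the H441 median over all genes became -0.08, that of the members 0.04, and 23 of 42 members were positive. These counts describe the list, and members were not tested as a set.

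**Figure D2:**
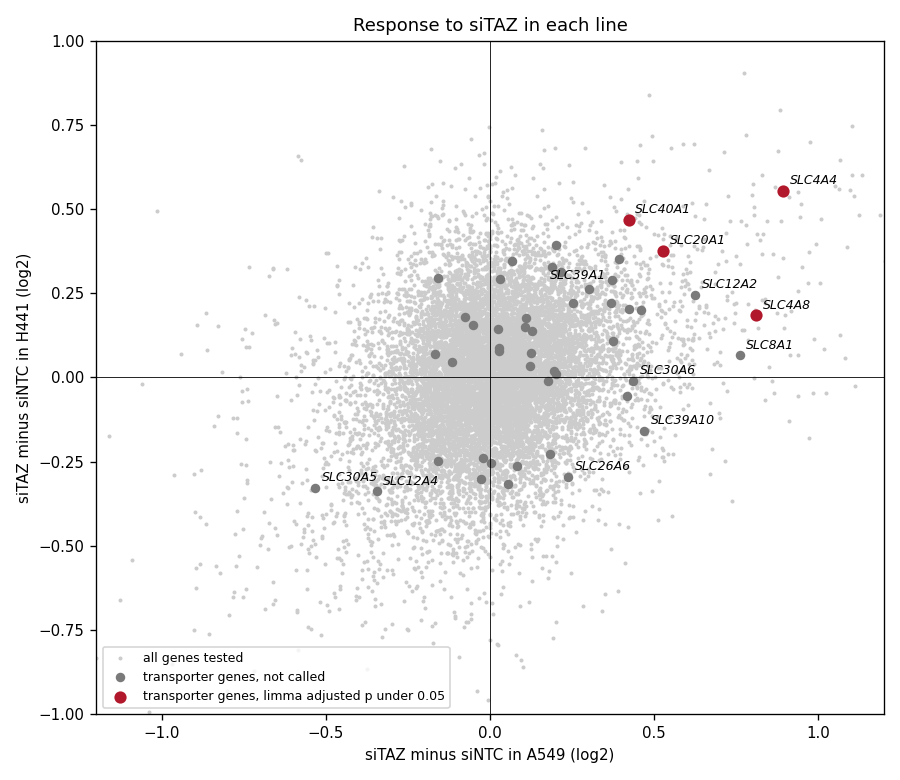
Log2 difference siTAZ minus siNTC in A549 (horizontal axis) and H441 (vertical axis), with 1 point per gene: light grey for all 12740 genes tested, dark grey for transporter genes not called and red for the 4 called at a limma adjusted p under 0.05. Of the 48 transporter genes, 29 lie in the upper right quadrant and 5 in the lower left; 27 genes fall outside the axes.

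In A549 alone, 4 of 46 transporter genes (8.7%) were at least 1.5-fold higher with siTAZ and 0 of 46 at least 1.5-fold lower. Of all genes, 1.76% were higher and 1.07% lower by that much. These are differences between single arrays, with no test. SLC4A4 and SLC4A8 were 1.86-fold and 1.75-fold higher, as given above. In A549, SLC4A8 reached the table median only with siTAZ, so it could be counted only as higher. SLC8A1, the plasma membrane sodium-calcium exchanger NCX1, was 7.88 with siTAZ and 7.12 with siNTC in A549, a 1.69-fold higher value, and 4.83 with siTAZ and 4.77 with siNTC in H441, where both signals were far below the table median (limma adjusted p over both lines = 0.13). SLC12A2, the sodium-potassium-chloride cotransporter NKCC1, was 11.28 with siTAZ and 10.66 with siNTC in A549, 1.54-fold higher, and 9.05 with siTAZ and 8.80 with siNTC in H441. Over both lines it missed the threshold (adjusted p = 0.062, and between 0.0021 and 0.19 under 8 other settings, with a call under 2). In H441, 0 of 42 transporter genes reached 1.5-fold in either direction, where 0.479% of all genes were higher and 0.974% lower by that much. The widest H441 differences were 0.55 for SLC4A4, 0.47 for SLC40A1 and 0.39 for SLC12A8. No test of a difference in response between the lines was possible with 1 array per group.

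Among the 6 tested genes of SLC4, SLC4A4 rose, SLC4A8 was called through its single array above the table median, and the other 4 did not pass. SLC4A2, the widely expressed chloride-bicarbonate exchanger, had differences of 0.13 and 0.14 in A549 and H441, from signals of 9.64 with siTAZ and 9.52 with siNTC in A549 and 9.59 with siTAZ and 9.45 with siNTC in H441. SLC4A3, an exchanger best known from heart and brain, had 0.07 and 0.35. SLC4A7, an electroneutral sodium-bicarbonate cotransporter, had -0.17 and 0.07, so that the sodium-bicarbonate cotransporters on the table did not share a direction in A549. SLC4A11, which is mutated in a corneal endothelial dystrophy, had -0.08 and 0.18.

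Of the SLC26 anion transporters, 0 of 5 tested passed, and only SLC26A11 was positive in both lines (0.11 and 0.18; signals of 7.43 with siTAZ and 7.33 with siNTC in A549 and of 7.03 with siTAZ and 6.85 with siNTC in H441). SLC26A6, a chloride-bicarbonate and chloride-oxalate exchanger, was 7.46 with siTAZ and 7.22 with siNTC in A549 but 6.46 with siTAZ and 6.76 with siNTC in H441, with differences of 0.24 and -0.29. SLC26A9, a chloride transporter of airway and stomach, had 0.42 in A549 and -0.06 in H441, where it lay below the table median. SLC26A2, the sulfate transporter needed for cartilage matrix, had -0.03 and -0.30, and SLC26A1, another sulfate transporter, 0.18 and -0.0096.

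The sodium-coupled exchangers gave few measured members. SLC8A1 was the only SLC8 gene tested, and its values are given above. SLC9A8, a sodium-proton exchanger of the Golgi and endosomes, had signals of 7.99 with siTAZ and 7.86 with siNTC in A549 and of 7.89 with siTAZ and 7.81 with siNTC in H441, and SLC9A2, an epithelial plasma membrane exchanger, differed by 0.03 and 0.29. SLC24A1, a potassium-dependent sodium-calcium exchanger known from rod photoreceptors, was the lowest of these by its coefficient, with signals of 6.14 with siTAZ and 6.30 with siNTC in A549 and of 6.33 with siTAZ and 6.58 with siNTC in H441. None of these 4 genes passed the limma test (adjusted p between 0.13 and 0.81), with SLC8A1 at an unadjusted p under 0.05.

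In the cation-chloride family SLC12, 5 of 6 tested genes were positive in both lines, where 30.3% of all tested genes were so. After median centring it was 4, as SLC12A7 turned in H441. The potassium-chloride cotransporter SLC12A4 was negative in both lines, and 0 of 6 passed. The family has cotransporters that load chloride into the cell and cotransporters that let it out with potassium. On the loading side, SLC12A2 is given above, and SLC12A3, the thiazide-sensitive sodium-chloride cotransporter of kidney, had 0.19 and 0.33 at signals of 5.76 to 6.39. On the potassium-chloride side, SLC12A4 was 7.62 with siTAZ and 7.97 with siNTC in A549 and 7.11 with siTAZ and 7.45 with siNTC in H441, lower by much the same amount in each line (-0.34 ± 0.12, limma adjusted p = 0.14). SLC12A7, the other potassium-chloride cotransporter tested, had 0.03 and 0.08. The less studied SLC12A9 had 0.37 and 0.29 (adjusted p = 0.16) and SLC12A8 had 0.20 and 0.39 (adjusted p = 0.24). All of SLC12A2, SLC12A3, SLC12A4, SLC12A8 and SLC12A9 had an unadjusted limma p under 0.05, where 13.2% of all tested genes did. Of these, SLC12A4 was lower, and SLC12A3 reached the table median only in A549 and SLC12A8 only in H441. The family was not tested as a set.

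Zinc exporters of SLC30 had differences of both signs, and 0 of 7 tested passed. SLC30A1, the plasma membrane exporter ZnT1, was 8.99 with siTAZ and 8.69 with siNTC in A549 and 8.64 with siTAZ and 8.38 with siNTC in H441 (adjusted p = 0.26). SLC30A3, the transporter that loads zinc into synaptic vesicles, had 0.37 and 0.22 near the table median. SLC30A5, which pairs with SLC30A6 to carry zinc into the early secretory pathway, was 8.96 with siTAZ and 9.50 with siNTC in A549 and 9.11 with siTAZ and 9.44 with siNTC in H441. Both lines had the lower value with siTAZ (-0.43 ± 0.12), just short of the threshold (adjusted p = 0.054, between 0.0049 and 0.21 over 8 other settings, with a call under 3). Its partner SLC30A6 had 0.44 in A549 and -0.0094 in H441 (where H441 had the opposite sign after quantile normalization or cyclic loess), so the pair did not share a direction in A549. SLC30A7, which also supplies the secretory pathway, had 0.06 and -0.32. SLC30A9 was 8.84 with siTAZ and 8.66 with siNTC in A549 and 9.91 with siTAZ and 10.14 with siNTC in H441. SLC30A4 had -0.12 and 0.05.

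Of the zinc importers of SLC39, 0 of 11 tested passed, with differences from -0.16 to 0.47 in A549 and from -0.26 to 0.35 in H441. SLC39A1, the widely expressed plasma membrane importer ZIP1, had the widest coefficient of the family, with 9.85 with siTAZ and 9.45 with siNTC in A549 and 10.31 with siTAZ and 9.96 with siNTC in H441 (0.37 ± 0.12, limma adjusted p = 0.10). It was the only importer with an unadjusted p under 0.05. SLC39A10 had 0.47 in A549 and -0.16 in H441, and its close relative SLC39A6 had 0.03 and 0.14. SLC39A7, which releases zinc from the endoplasmic reticulum, was 10.11 with siTAZ and 9.91 with siNTC in A549 and 10.65 with siTAZ and 10.64 with siNTC in H441. SLC39A8 and SLC39A14, which carry manganese as well as zinc, had -0.05 and 0.16 for SLC39A8 and 0.08 and -0.26 for SLC39A14. SLC39A3, SLC39A4 (the intestinal importer mutated in acrodermatitis enteropathica), SLC39A9, SLC39A11 and SLC39A13 (mutated in a form of Ehlers-Danlos syndrome) had coefficients between -0.13 for SLC39A9 and 0.24 for SLC39A11.

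The tested iron, copper and magnesium transporters of SLC11, SLC31, SLC40 and SLC41 were all positive in both lines as deposited. This was 7 of 7, where 30.3% of all tested genes were positive in both. After median centring it was 6, as SLC41A1 turned in H441. SLC40A1 was the only call, and the families were not tested as a group. SLC11A2, the divalent metal transporter DMT1, was 8.52 with siTAZ and 8.09 with siNTC in A549 and 8.89 with siTAZ and 8.68 with siNTC in H441 (0.31 ± 0.12, limma adjusted p = 0.20). The copper importer SLC31A1 was 9.78 with siTAZ and 9.67 with siNTC in A549 and 9.49 with siTAZ and 9.34 with siNTC in H441, and its relative SLC31A2 had 0.25 and 0.22. Of the magnesium transporters, SLC41A2 was 9.16 with siTAZ and 8.70 with siNTC in A549 and 9.53 with siTAZ and 9.33 with siNTC in H441 (adjusted p = 0.17). SLC41A3 had 0.22 and 0.31, and SLC41A1, a plasma membrane sodium-magnesium exchanger, 0.20 and 0.02.

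**Figure D3:**
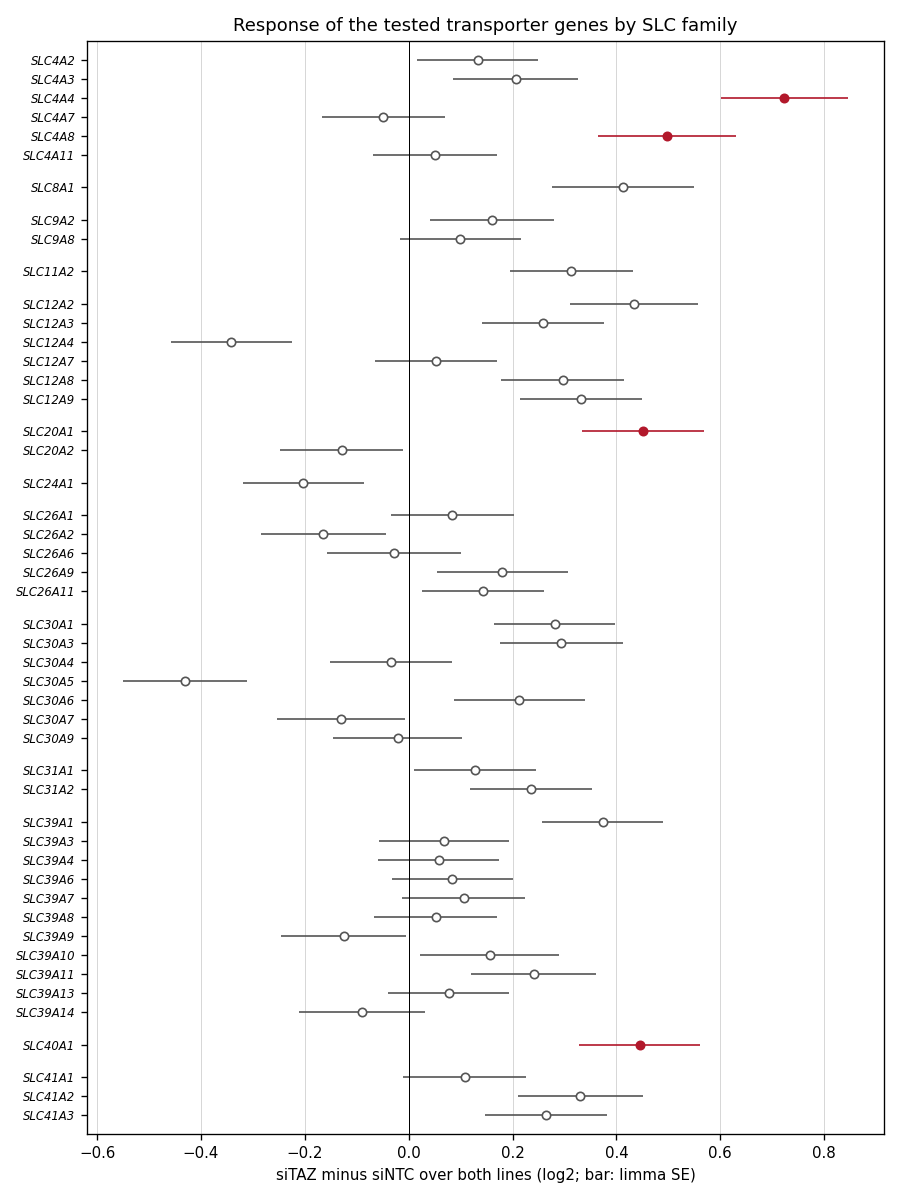
Limma coefficient of siTAZ minus siNTC over both lines (log2, horizontal axis) for the 48 tested transporter genes, with 1 row per gene grouped by SLC family; bars are the limma SE and filled red points the genes with an adjusted p under 0.05. SLC4A4 lies farthest to the right at 0.72, SLC30A5 farthest to the left at -0.43, and 36 of the 48 lie above 0.

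Other genes of ion and metal handling were examined in 8 lists, against the 2.47% of all genes called in either direction. Copper handling (11 genes tested) had 1 call: ATP7A, the copper-exporting ATPase of the Golgi and plasma membrane, was 7.49 with siTAZ and 8.38 with siNTC in A549 and 7.39 with siTAZ and 8.01 with siNTC in H441 and fell by 0.76 ± 0.12 (SE, limma adjusted p = 0.00060, and 0.061 after cyclic loess, the only 1 of 8 other settings with the line in the model that lost the call). SCO1, a copper chaperone of cytochrome oxidase assembly, had -0.42 and -0.35 (adjusted p = 0.088), and STEAP2, a metalloreductase, 0.38 and 0.11. Iron handling (22 tested) had 1 call, HMOX1, the heme oxygenase that frees iron from heme. HMOX1 was 9.46 with siTAZ and 10.62 with siNTC in A549 and 8.08 with siTAZ and 8.26 with siNTC in H441, fell by 0.67 ± 0.16 (SE, adjusted p = 0.018), and kept the call under 4 of 8 other settings (adjusted p between 4.3e-06 and 0.37). TFRC, the transferrin receptor, had -0.0047 and 0.06, HFE, its regulator, 0.71 and 0.14, and NCOA4, the ferritinophagy receptor, 0.19 and -0.42.

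The carbonic anhydrases and exchanger partners (11 tested) had 2 calls, both higher. CA11, a carbonic anhydrase-related protein without enzyme activity, was 8.73 with siTAZ and 7.95 with siNTC in A549 and 7.91 with siTAZ and 7.19 with siNTC in H441 (0.75 ± 0.12, limma adjusted p = 0.00056). CA13, a cytosolic carbonic anhydrase, was 6.24 with siTAZ and 5.34 with siNTC in A549 and 8.30 with siTAZ and 8.15 with siNTC in H441 (adjusted p = 0.046, between 0.0040 and 0.30 over 8 other settings, with a call under 3). The CA13 difference was 0.90 in A549, where the siNTC value lay below the table median, and 0.15 in H441. AHCYL2, a relative of a known activator of sodium-bicarbonate cotransport, had -0.47 and 0.20.

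The limma test made 0 calls in the other 5 lists, and their counts at an unadjusted p under 0.05 in either direction stand against 13.2% of all tested genes. Metallothioneins and MTF1, the zinc-sensing factor that induces them and SLC30A1, had 0 of 9 tested genes at an unadjusted p under 0.05 and medians of -0.11 in A549 and -0.14 in H441. The named members MT1X had -0.20 and -0.19, MT1H -0.16 and 0.25 and MT3 -0.16 and 0.40. Calcium pumps and store channels had 5 of 17 at an unadjusted p under 0.05, with 0.26 and 0.38 for ATP2B1, a plasma membrane calcium pump, 0.32 and 0.30 for the inositol trisphosphate receptor ITPR3, and -0.14 and -0.41 for MICU2 of the mitochondrial uniporter. Magnesium and phosphate transport had 4 of 14, and NIPA2, a magnesium transporter, had -0.75 and -0.18 (adjusted p = 0.059). XPR1, the phosphate exporter, had 0.38 and 0.25 beside the rise of the phosphate importer SLC20A1, and SLC34A2, another sodium-phosphate cotransporter, 0.13 and 0.59. The sodium-potassium pump and volume control list had 4 of 15, with 0.29 and 0.25 for the volume-regulated anion channel subunit LRRC8A, -0.18 and -0.35 for the pump subunit ATP1B3, and -0.30 and -0.22 for OXSR1, the kinase that activates SLC12A2. Epithelial chloride and sodium channels had 1 of 5, with -0.35 and -0.21 for CLCN3, -0.26 and 0.26 for CLCN7 and 0.30 and 0.18 for the sodium channel subunit SCNN1A.

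Between the lines, 33 of the 48 transporter genes differed, 16 higher and 17 lower in A549 than in H441, by the cell line coefficient of the same limma fit. This is 68.8% of the members, 33.3% higher and 35.4% lower in A549. Of all genes, 71.9% were called, 19% higher and 52.8% lower. Only the share called in either direction is thus near that of any gene. Among the 40 members that reached the table median in both lines, 27 were called (67.5%, against 68.3% of such genes). Of the 40, 12 were higher in A549 (30%, against 15.8%) and 15 lower (37.5%, against 52.5%). The other 6 calls, SLC8A1, SLC9A2, SLC12A3 and SLC30A4 higher and SLC12A8 and SLC26A1 lower in A549, are of genes that entered the test only through the line where they were high, so they are given as levels with no test. Each line is 1 siTAZ and 1 siNTC array, so the spread behind these tests is not that of separate cultures. The split depended on the scaling: the median A549 minus H441 difference over all genes was -0.31 as deposited, -0.15 after median centring, -0.00028 after quantile normalization and 0.02 after cyclic loess. The members' split was then 18 higher and 15 lower after median centring and 23 higher and 8 lower after either of the others. After median centring, SLC20A1 and SLC39A3 lost their call. After quantile normalization or cyclic loess, SLC11A2, SLC20A1, SLC26A1, SLC30A6, SLC39A1, SLC39A3, SLC39A7, SLC41A2 and SLC41A3 lost their call, and SLC20A1 turned its sign.

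Of the 8 genes highest in A549 relative to H441, SLC4A4, SLC4A7, SLC4A11, SLC12A2 and SLC26A2 reached the table median in both lines. All of them kept call and direction under every alternative in which they were tested. In H441, SLC4A4 reached that median with siTAZ alone. The other 3 are SLC8A1, SLC9A2 and SLC30A4. Their H441 signals lay below the table median, so neither the call nor the size of the difference is read. SLC8A1 has the values given above. SLC9A2, the epithelial sodium-proton exchanger, was 6.94 and 6.91 in A549 with siTAZ and siNTC, against 5.01 and 4.72 in H441. SLC12A2, with the values given above, was 4.14-fold higher in A549 (2.05 ± 0.12, limma adjusted p = 3.3e-13), the widest difference among the members above the table median in both lines. The lines did not overlap for any of the 8 genes, which follows from picking them by the width of the difference between the lines.

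The zinc transporter SLC30A4 was 7.04 and 7.16 in A549 with siTAZ and siNTC, against 5.33 and 5.29 in H441. The bicarbonate cotransporter SLC4A4 was 2.57-fold higher in A549, from the values above, of which the H441 siNTC value (5.80) lay below the table median. SLC4A7 was 8.54 and 8.70 in A549, against 7.59 and 7.52 in H441. All 3 SLC4 genes that differed between the lines were thus higher in A549, the last being SLC4A11 with 7.81 and 7.88 in A549, against 6.94 and 6.76 in H441. The sulfate transporter SLC26A2 was 7.55 and 7.58 in A549, against 6.23 and 6.53 in H441.

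Of the 8 genes lowest in A549 relative to H441, SLC12A8 reached the table median only in H441, and its call is not read. The others kept call and direction under every alternative in which they were tested as well. Of these, 5 shrank by more than 1.5 times after quantile normalization and cyclic loess. SLC39A11 went furthest, with -0.29 after either (limma adjusted p = 0.041 and 0.045), beside -0.68 as deposited. SLC40A1 had -0.66 after either, beside -1.05, and SLC12A9 -0.60 and -0.59, beside -0.92. SLC39A8 had -0.78 and -0.79, beside -1.19, and SLC30A7 -0.74 and -0.75, beside -1.13. SLC12A8 was 5.79 and 5.59 in A549 with siTAZ and siNTC, below the table median, against 7.83 and 7.44 in H441. The phosphate cotransporter SLC20A2 was 8.38 and 8.40 in A549, against 9.77 and 10.01 in H441 (-1.49 ± 0.12, limma adjusted p = 6.5e-11). The zinc transporter SLC30A9 had a coefficient of -1.28, from the values above. SLC39A8 was 9.28 and 9.34 in A549, against 10.57 and 10.42 in H441. SLC30A7 was 8.15 and 8.09 in A549, against 9.09 and 9.41 in H441, and SLC39A11 8.71 and 8.34 in A549, against 9.26 and 9.15 in H441. Ferroportin, SLC40A1, was 2.08-fold lower in A549 from the values above, and SLC12A9 was 7.49 and 7.12 in A549, against 8.37 and 8.08 in H441.

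The lines did not overlap for any of these 8 genes either, which again follows from how they were picked. Among the 4 genes called after siTAZ, SLC4A4 was thus the higher in A549, SLC40A1 the lower in A549, and SLC4A8 did not pass the test between the lines (adjusted p = 0.19). SLC20A1 had a coefficient of -0.38 ± 0.12 as deposited (limma adjusted p = 0.0059). It lost the call after median centring and had the opposite sign after quantile normalization or cyclic loess. By family, beside 19% higher and 52.8% lower over all genes, SLC4 had 3 higher and 0 lower of 6 tested, SLC12 had 4 and 2 of 6, and SLC26 had 3 and 1 of 5. The zinc exporters had 2 higher and 3 lower of 7, and the zinc importers 1 higher (SLC39A14) and 5 lower of 11. Of those 5, SLC39A1, SLC39A3 and SLC39A7 lost their call after quantile normalization or cyclic loess, and SLC39A3 also after median centring. These splits include SLC12A3 and SLC30A4 as higher and SLC12A8 and SLC26A1 as lower. Those genes entered the test only through the line where they were high. The splits describe small families and were not tested.

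**Figure D4:**
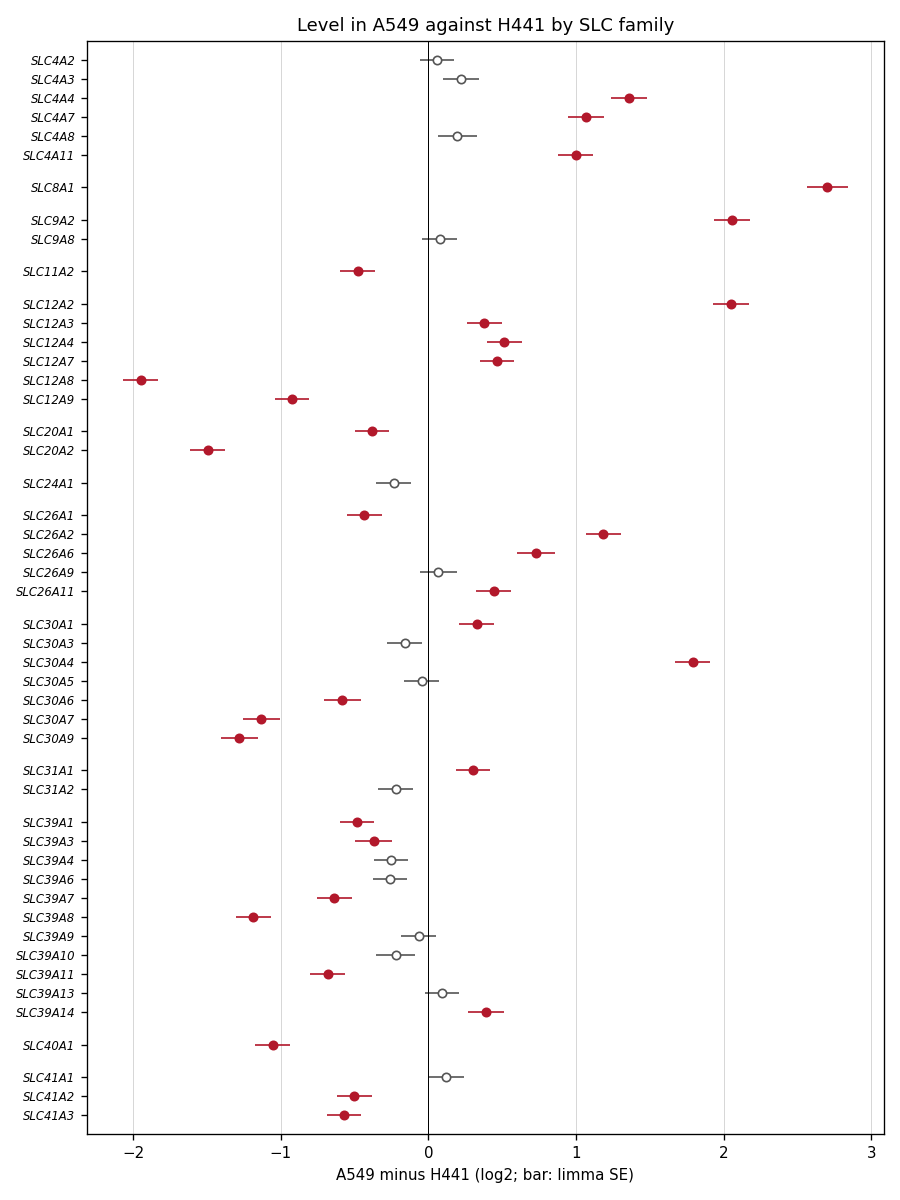
Limma cell line coefficient, A549 minus H441 (log2, horizontal axis), for the 48 tested transporter genes, with 1 row per gene grouped by SLC family; bars are the limma SE and filled red points the 33 genes with an adjusted p under 0.05. The points run from -1.95 for SLC12A8 to 2.70 for SLC8A1, and both of these genes lay below the table median in the line where they were low.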

How the data were processed

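RNA of 4 transfected cultures was profiled on whole-transcript arrays, and the authors deposited a table of log2 probe set signals made with RMA, per the submitters' processing notes. The labels state neither the RMA version nor whether normalization was joint over the 4 arrays. That the scale is log2 was inferred from a range of 4.20 to 14.83 over 28869 probe sets. RMA understates the fold of a dim probe set. With a single array per group, the number of arrays limits precision.

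Gene names came from the platform annotation: 19310 had 1 symbol, 1752 several and 7807 none there. A gene with several probe sets was represented by that with the highest mean. Differences within a line have no test, and a gene was counted there if the higher of its arrays reached the table median. For both lines together, limma version 3.58.1 (R version 4.3.3) was run with functions lmFit and eBayes and terms for cell line and siRNA. It covered 12740 genes with a highest value at or above that median, with a prior worth 22.3 degrees of freedom. Tests were two-sided and Benjamini-Hochberg adjusted over all genes tested. A run on simulated arrays gave every gene the same spread, so it cannot speak for the stability of the calls here. A gene was called at an adjusted p under 0.05. Values on all arrays are given for called genes, including those of the 8 lists, and for genes 1.5-fold changed in a line. They are also given for the 8 per direction that differ most between the lines and for the family member with the highest mean signal. From each list, the 3 genes with the widest differences are named, with differences only where not called. TFRC was named in addition to these. Other members named in the text are there to account for every member. Alternatives were median centring, quantile normalization, cyclic loess, no filter or a filter at the 75th percentile, the mean of probe sets, an intensity trend or a robust prior, and no cell line in the model. The members and lists were chosen with earlier results of these data known, and the 3 promoter motifs after the values were seen.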

Additional observations from a re-analysis of the deposited data

How the results depend on the processing

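The direction of the siTAZ coefficient held for all 48 tested transporter genes under every alternative in which they were tested, except for SLC30A9 after cyclic loess. The calls were less stable. Against 4 transporter genes called higher as deposited, the count was 2 after median centring, 1 after quantile normalization or without the filter on dim genes, and 0 after cyclic loess or with no cell line in the model. Against 0 called lower, it was 1 (SLC30A5) after median centring, with the filter at the 75th percentile and with an intensity trend in the prior. SLC4A4, the call kept most often among the 4, was too dim to be tested under the stricter filter. Transporter genes at an unadjusted p under 0.05 numbered 17, and 0 with no cell line in the model, where the difference between the lines enters the spread. Over all genes, 151 higher and 164 lower calls compare with 75 and 67 after quantile normalization, 9 and 11 after cyclic loess, 47 and 45 without the filter, 278 and 316 with the intensity trend, 277 lower after median centring, and 0 and 0 with no cell line in the model, where 11 genes had an unadjusted p under 0.05. Between the lines, 16 transporter genes higher in A549 became 6 with the stricter filter, which tested fewer genes, and 17 lower became 8 after quantile normalization or cyclic loess. In A549, 4 genes at least 1.5-fold higher became 1 with the stricter filter, which SLC12A2 alone passed. The cell line term pairs siTAZ with siNTC within each line, and the model with no cell line is the unpaired counterpart. Leaving out an array was likewise not run, as it would leave a group empty.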

Other observations

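The 3 probe sets of SLC39A7 gave nearly the same values, with differences of 0.20 in A549 and 0.01 in H441 for each. A further probe set that the annotation gives to both SLC12A4 and LCAT was not used for SLC12A4. It had signals of 6.11 with siTAZ and 6.09 with siNTC in A549, and of 6.25 with siTAZ and 6.06 with siNTC in H441, where the probe set of SLC12A4 alone was lower with siTAZ in both lines.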
